A study of Homo sapiens with 6 samples.

Results

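The genes described here encode the proteins that form the 3′ ends of replication-dependent histone mRNAs. They were chosen by gene symbol, and all 10 were found among the 56832 rows of the count tables: the histone locus body proteins NPAT and CASP8AP2, the stem-loop proteins SLBP, ERI1 and ZNF473, the U7 ring proteins LSM10 and LSM11, and the cleavage factors SYMPK, CPSF2 and CPSF3. Poly(A) RNA was sequenced from HEK293T, a human embryonic kidney line, in which GLO1 had been knocked out. GLO1 encodes glyoxalase 1, which starts the detoxification of methylglyoxal (MGO), a reactive by-product of glycolysis that can modify histones. The 3 MGO libraries (numbered 1, 3 and 4) came from cells given 0.2 mM MGO overnight, and the 3 untreated libraries (numbered 1, 2 and 4) from cells without it. Both groups carry the knockout. No cells with intact GLO1 were analysed here, and the labels do not say whether the line is 1 clone or whether libraries came from separate cultures, so each p-value reflects library-to-library spread alone, which may be technical.

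Replication-dependent histone genes are transcribed in S phase in nuclear sites called histone locus bodies, and most of their mRNAs end in a conserved stem-loop in place of a poly(A) tail. SLBP binds that stem-loop, while the U7 small nuclear RNA pairs with the pre-mRNA just downstream. The U7 particle then brings in a cleavage module that also serves ordinary polyadenylation, and its nuclease cuts between the binding sites of SLBP and U7.

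The sequences that these proteins recognise are shown first, because they define the substrate. Annotated transcripts (GENCODE release 29, GRCh38) were searched for an exact 6-base stem over a 4-base loop. The search fixed GG at the start, TT at the start of the loop and CC at the end. A match was found for 31 of 75 rows taken by symbol as replication-dependent histones. Some models without a match are short, such as HIST1H2BK with 381 bases, and may lack the 3′ end. A missing match therefore does not show a missing stem-loop. The 75 rows include the annotated pseudogenes HIST2H2BA, HIST2H2BB, HIST2H2BC, HIST2H2BD and HIST3H2BA, the last also among the 31. A match can also lie beside another histone gene. That of HIST1H2BN (chr6:27865773-27865798, plus strand) lies just past the annotated end of HIST1H2AL (27865747, same strand), which had no match of its own. Within the fixed letters, the matches held 4 different stem-loops of 16 bases, and the commonest occurred in 18 genes. Each is given 5′ to 3′ with 5 flanking bases on either side, capitals marking the stem-loop, from the gene with the highest mean level among those that hold it.
HIST3H2A (chr1:228457364-228457389, minus strand, shared by 18 genes): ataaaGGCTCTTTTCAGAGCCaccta
HIST1H4H (chr6:26285126-26285151, minus strand, shared by 5 genes): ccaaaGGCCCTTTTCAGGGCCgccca
HIST1H2BD (chr6:26158582-26158607, plus strand, shared by 5 genes): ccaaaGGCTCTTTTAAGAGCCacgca
HIST1H4I (chr6:27139649-27139674, plus strand, shared by 3 genes): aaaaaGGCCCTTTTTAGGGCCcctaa

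U7 RNA is 63 bases long (RNU7-1, chr12:6943816-6943878, plus strand). Capitals mark the start of its Sm site, where the ring that holds LSM10 and LSM11 assembles.
RNU7-1: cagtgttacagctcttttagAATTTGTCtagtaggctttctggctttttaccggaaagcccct
The RNU7-1 row had a count of 0 in all 6 libraries. U7 RNA carries no poly(A) tail, and the libraries were made from poly(A) RNA.

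Depth was split exactly as treatment was. Totals ran from 19195920 to 21544749 counts in MGO libraries and from 41002134 to 45910040 in untreated libraries, and the mean MGO total was 0.455 times the untreated one (exact two-sided permutation test, n = 3 per group, p = 0.1, which is the lowest value reachable with 20 permutations). Even so, every factor had at least 192 counts in every library. Of the HEK293 markers, PAX2, NEFL, NEFM, VIM, KRT8, KRT18 and CDH2 were all counted and tested. With MGO, 3 were higher and 4 lower, the lowest being PAX2 at a log2 fold change of -2.24. The 6 markers of blood, liver, fibroblast and endothelial cells were PTPRC, CD3E, ALB, HBB, COL1A2 and PECAM1, with COL1A2 at 0. They summed to 0.215 to 0.774 CPM in MGO libraries and 0.0862 to 0.125 CPM in untreated libraries. NEFM was itself near the floor, at 0.440 ± 0.204 CPM in MGO and 1.57 ± 0.0596 CPM in untreated libraries. Its MGO values lay within the range of that sum. Mitochondrial genes took 8.17%, 6.00% and 5.34% of counts in MGO libraries 1, 3 and 4, against 5.42%, 4.20% and 4.28% in untreated libraries 1, 2 and 4. GLO1, the targeted gene, averaged 140 ± 5.30 CPM in MGO and 48.1 ± 2.57 CPM in untreated libraries, and without cells that keep GLO1 this does not check the knockout.

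All 10 factors passed the filter on low counts and all 10 were called, 7 higher and 3 lower with MGO (edgeR quasi-likelihood test, Benjamini-Hochberg adjusted p under 0.05 over 17415 genes). The background was high: 83.1% of all tested genes were called, 41.8% higher and 41.2% lower. The 3 MGO values lay wholly above or below the 3 untreated values for all 10 factors, as for 83.5% of tested genes. These shares by themselves therefore mark nothing out about the factors, and what follows is which of them moved, which way and how far. The median log2 fold change was 0.34 over the 10 factors and 0.01 over all tested genes. At least 2-fold changes were seen for 2 of the 10, LSM10 (lower) and ZNF473 (higher), against 36.5% of tested genes, and 3 of the 10, these and CASP8AP2, passed a test against a fold of 1.5, against 47.7%.

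**Figure D1:**
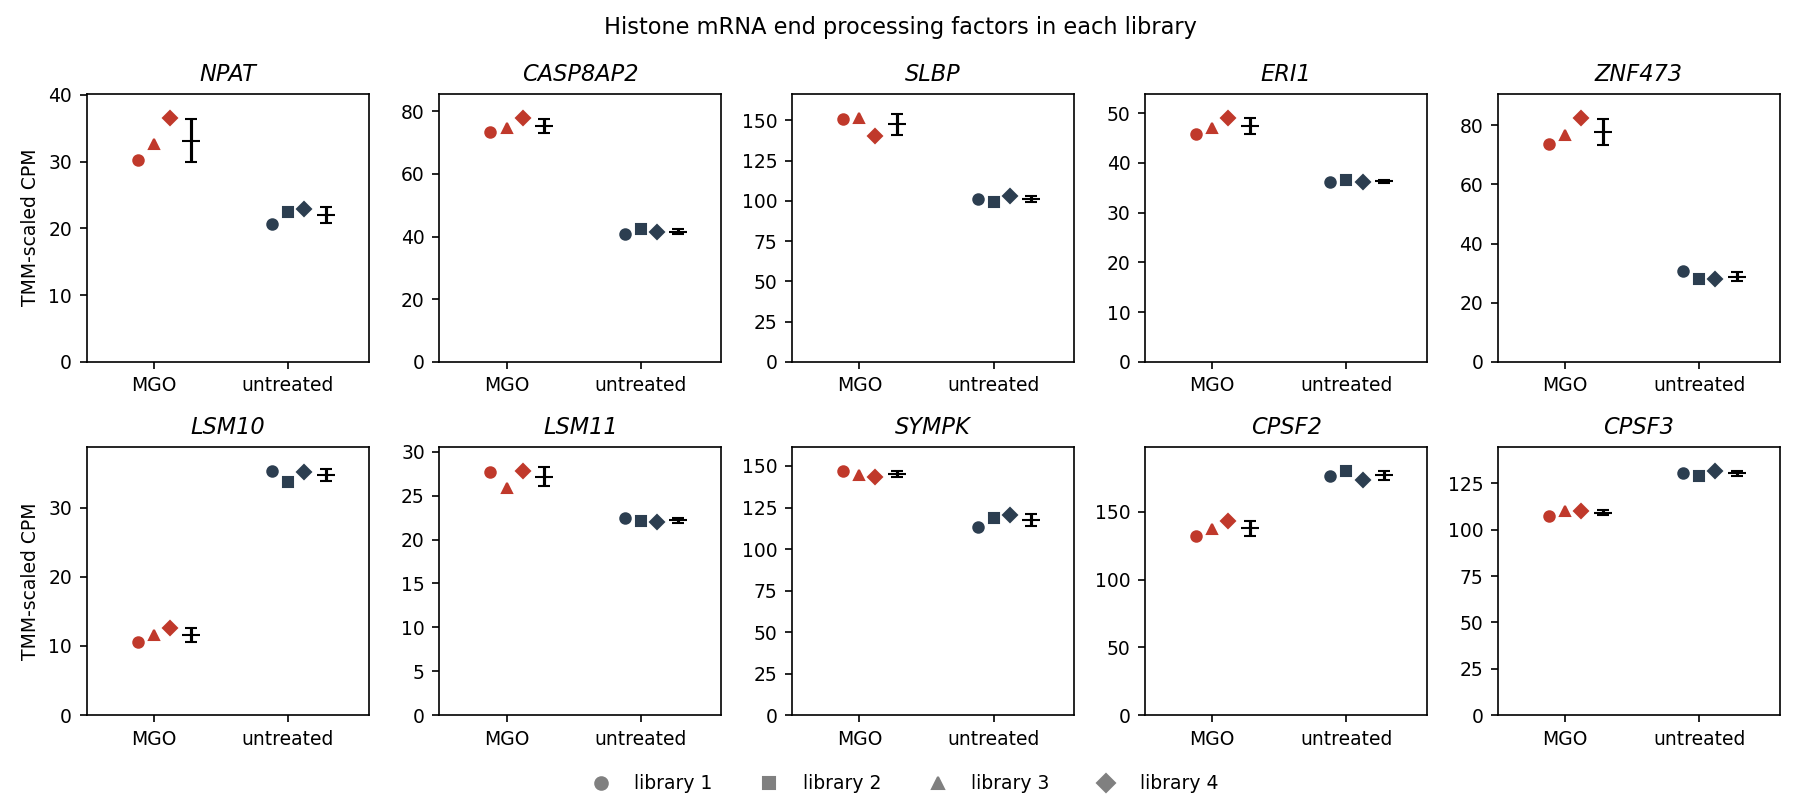
TMM-scaled CPM of each factor (y axes, each starting at 0) in the 3 MGO libraries (red) and the 3 untreated libraries (dark), with marker shapes for the library number and the mean ± SD beside the points. In every panel the groups are separate: LSM10, CPSF2 and CPSF3 are lower in MGO libraries and the other 7 are higher.

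Levels are TMM-scaled CPM (counts scaled to library size after correction for composition) with the SD over 3 libraries, and log2 fold changes are MGO over untreated. They are shares of each library's RNA. In a bulk sample, fewer cells with a transcript and less of it per cell cannot be told apart.

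Both proteins of the histone locus body had higher mRNA with MGO. NPAT, the cyclin E/CDK2 substrate that activates histone gene transcription (hg38 chromosome 11, 108157215 to 108222642, minus strand), had 30.2, 32.6 and 36.5 CPM in MGO libraries 1, 3 and 4, against 20.7, 22.4 and 22.9 CPM in untreated libraries 1, 2 and 4. The lowest MGO library stood above the highest untreated one, and the MGO libraries were the more widely spread. NPAT averaged 33.1 ± 3.18 CPM in MGO and 22.0 ± 1.17 CPM in untreated libraries, and the log2 fold change was 0.60 (SE 0.0624, adjusted p = 5.46e-10). CASP8AP2, also called FLASH, is the scaffold that binds LSM11 and helps to recruit the cleavage module (chromosome 6, 89829894 to 89874436, plus strand). It had 73.4, 74.7 and 77.9 CPM in MGO libraries 1, 3 and 4, against 40.9, 42.5 and 41.5 CPM in untreated libraries 1, 2 and 4. All MGO values were close together and far above all untreated values. Its log2 fold change was 0.86 (SE 0.0432, adjusted p = 5.35e-18), a 1.81-fold rise.

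The 3 proteins tied to the stem-loop also had higher mRNA, by very different amounts. SLBP, the stem-loop binding protein itself (chromosome 4, 1692800 to 1712555, minus strand), had 151, 151 and 140 CPM in MGO libraries 1, 3 and 4, against 101, 99.3 and 103 CPM in untreated libraries 1, 2 and 4. Its groups were well apart, with MGO library 4 the lowest of the treated ones. SLBP averaged 147 ± 6.53 CPM in MGO and 101 ± 1.84 CPM in untreated libraries (log2 fold change 0.54, SE 0.0397, adjusted p = 6.93e-14). ERI1, the exonuclease that trims the end of histone mRNA and takes part in its decay (chromosome 8), had 45.9, 47.1 and 49.0 CPM in MGO libraries 1, 3 and 4, against 36.1, 36.6 and 36.1 CPM in untreated libraries 1, 2 and 4. The untreated values were nearly equal and all lay below the MGO values. The log2 fold change of ERI1 was 0.38 (SE 0.0471, adjusted p = 8.74e-09).

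ZNF473, the zinc finger protein also called ZFP100 that links the SLBP complex to the U7 particle (chromosome 19, 50025714 to 50053414, plus strand), showed the largest rise of the 10. It had 73.7, 76.8 and 82.4 CPM in MGO libraries 1, 3 and 4, against 30.6, 27.9 and 27.9 CPM in untreated libraries 1, 2 and 4. All MGO libraries were high, library 4 most of all, and none came near an untreated one. The log2 fold change was 1.43 (SE 0.0497, adjusted p = 3.16e-22), or 2.70-fold. ZNF473 was the single factor with more raw counts on average in the MGO libraries, 1.14 times the untreated mean, despite their lower depth.

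The pair of proteins that make the U7 ring distinct went opposite ways. In the U7 particle LSM10 and LSM11 take the places that SNRPD1 and SNRPD2 hold in the spliceosomal Sm ring, beside the shared SNRPB, SNRPD3, SNRPE, SNRPF and SNRPG. LSM10 (chromosome 1, 36391238 to 36397892, minus strand) had 10.6, 11.5 and 12.6 CPM in MGO libraries 1, 3 and 4, against 35.3, 33.7 and 35.1 CPM in untreated libraries 1, 2 and 4. The MGO libraries were all low and the untreated ones all high, with a wide gap between the groups. LSM10 averaged 11.6 ± 1.02 CPM in MGO and 34.7 ± 0.860 CPM in untreated libraries, the largest change of the 10 (log2 fold change -1.57, SE 0.0656, adjusted p = 3.68e-20). In size this change exceeded that of 79.9% of tested genes.

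LSM11 (chromosome 5, 157743695 to 157760709, plus strand) was slightly higher. It had 27.7, 25.9 and 27.8 CPM in MGO libraries 1, 3 and 4, against 22.5, 22.1 and 22.0 CPM in untreated libraries 1, 2 and 4. The groups did not overlap, but the step was small (log2 fold change 0.29, SE 0.0561, adjusted p = 2.17e-05). With no filter on low counts the call was lost (log2 fold change 0.11, adjusted p = 0.124), and over 19 alternatives its adjusted p ran from 3.59e-06 to 1, the last in the test against a fold of 1.5. Leaving out the filter shifted log2 fold changes of all genes tested both ways by a median of -0.18.

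**Figure D2:**
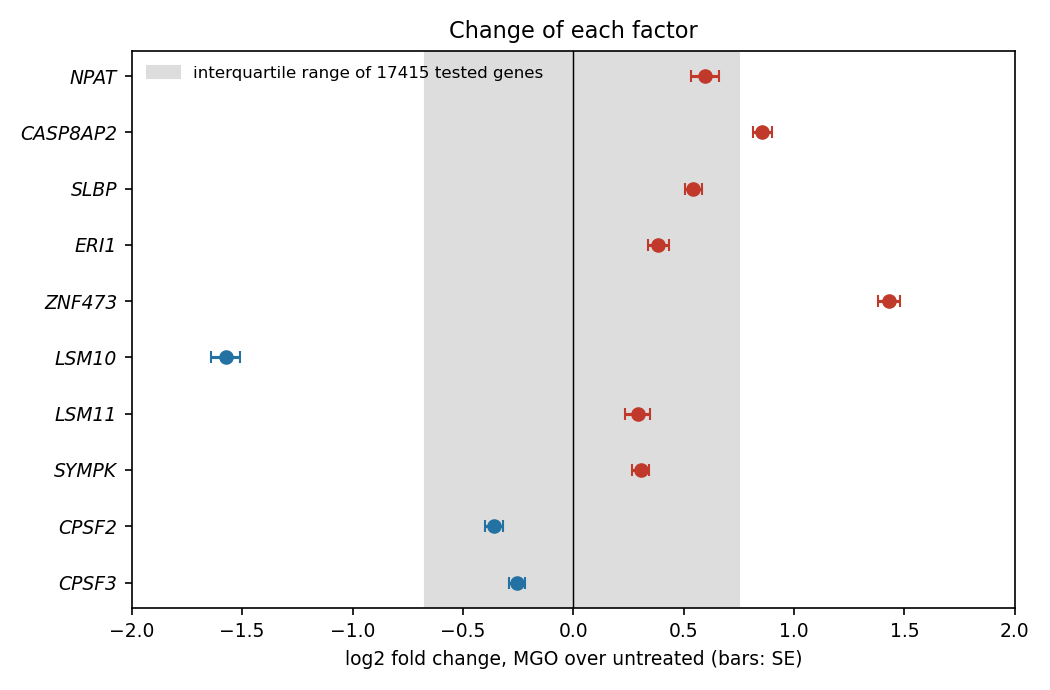
Log2 fold change (x axis, MGO over untreated) of each factor with its SE as bars, over the interquartile range of all 17415 tested genes in grey (-0.67 to 0.75). LSM10 at -1.57, ZNF473 at 1.43 and CASP8AP2 at 0.86 lie outside that range and the other 7 inside it.

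The cleavage factors split. SYMPK, or symplekin, the scaffold of the module (chromosome 19, 45815410 to 45863290, minus strand), had 147, 144 and 144 CPM in MGO libraries 1, 3 and 4, against 113, 118 and 120 CPM in untreated libraries 1, 2 and 4, so the groups were apart. It averaged 145 ± 1.69 CPM in MGO and 117 ± 3.61 CPM in untreated libraries (log2 fold change 0.31, SE 0.0383, adjusted p = 1.44e-08). The nuclease and its inactive partner were both lower. CPSF3, or CPSF73, the endonuclease that cuts histone pre-mRNA (chromosome 2, 9423568 to 9473101, plus strand), had 107, 110 and 110 CPM in MGO libraries 1, 3 and 4, against 130, 129 and 132 CPM in untreated libraries 1, 2 and 4. These are tight groups with a gap between them, and the log2 fold change was -0.26 (SE 0.0376, adjusted p = 2.95e-07). CPSF2, or CPSF100, its relative without catalytic activity (chromosome 14, 92121937 to 92172145, plus strand), had 132, 137 and 144 CPM in MGO libraries 1, 3 and 4, against 177, 180 and 174 CPM in untreated libraries 1, 2 and 4. Again no library crossed over (log2 fold change -0.36, SE 0.0392, adjusted p = 8.16e-10). CSTF2, the polyadenylation factor that also joins the histone cleavage module, was picked out after its values were seen. It averaged 39.0 ± 1.15 CPM in MGO and 53.3 ± 2.01 CPM in untreated libraries (log2 fold change -0.45, adjusted p = 4.44e-10).

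Within the MGO group, 6 factors (NPAT, CASP8AP2, LSM10, ZNF473, ERI1 and CPSF2) were lowest in library 1 and highest in library 4, and SYMPK had the opposite order. Library 1 had the highest mitochondrial share and library 4 the lowest, and the part of that share in these differences was not tested. Without both libraries numbered 1, the calls stood at 7 factors higher and 3 lower.

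Divided by the exon length of each gene (the union of its GENCODE exons), the factors could be ordered by level. In MGO libraries SLBP led with 72.8 ± 3.22 CPM per kb, followed by CPSF3 with 29.0, SYMPK with 13.6, ZNF473 with 11.3, CPSF2 with 10.1, CASP8AP2 with 9.22, LSM10 with 7.75, ERI1 with 7.41, NPAT with 4.40 and LSM11 with 4.12 CPM per kb. In untreated libraries SLBP also led with 49.9 ± 0.909 CPM per kb, followed by CPSF3 with 34.6, LSM10 with 23.2, CPSF2 with 13.0, SYMPK with 11.0, ERI1 with 5.68, CASP8AP2 with 5.09, ZNF473 with 4.17, LSM11 with 3.37 and NPAT with 2.92 CPM per kb. LSM10 thus ranked 7 of 10 with MGO and 3 of 10 without it. Neighbours in the order overlapped between libraries only in MGO, for LSM10 and ERI1 and for NPAT and LSM11. Exon unions count every annotated isoform, so genes with long alternative ends, such as CPSF2 with 13.6 kb, are placed low.

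Ratios of counts within a library do not depend on depth or scaling, and they show LSM10 and LSM11 moving apart. A ratio does not say which of its 2 genes moved, so it does not show that LSM11 rose. The ratio of LSM10 to SNRPD1 was 0.0739, 0.0850 and 0.0936 in MGO libraries 1, 3 and 4, against 0.219, 0.216 and 0.226 in untreated libraries 1, 2 and 4. It was lower in every MGO library, 0.382 times the untreated mean. The ratio of LSM11 to SNRPD2 averaged 0.100 ± 0.00965 in MGO and 0.0696 ± 0.00284 in untreated libraries, higher in every MGO library. LSM11 had 2.61, 2.25 and 2.20 counts per LSM10 count in MGO libraries 1, 3 and 4, against 0.638, 0.655 and 0.628 in untreated libraries 1, 2 and 4. For the cleavage pair, the ratio of CPSF3 to CPSF2 averaged 0.793 ± 0.0234 in MGO and 0.738 ± 0.0201 in untreated libraries. The groups did not overlap, though the lowest MGO ratio (0.767) was close to the highest untreated one (0.758). None of these ratios was tested.

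**Figure D3:**
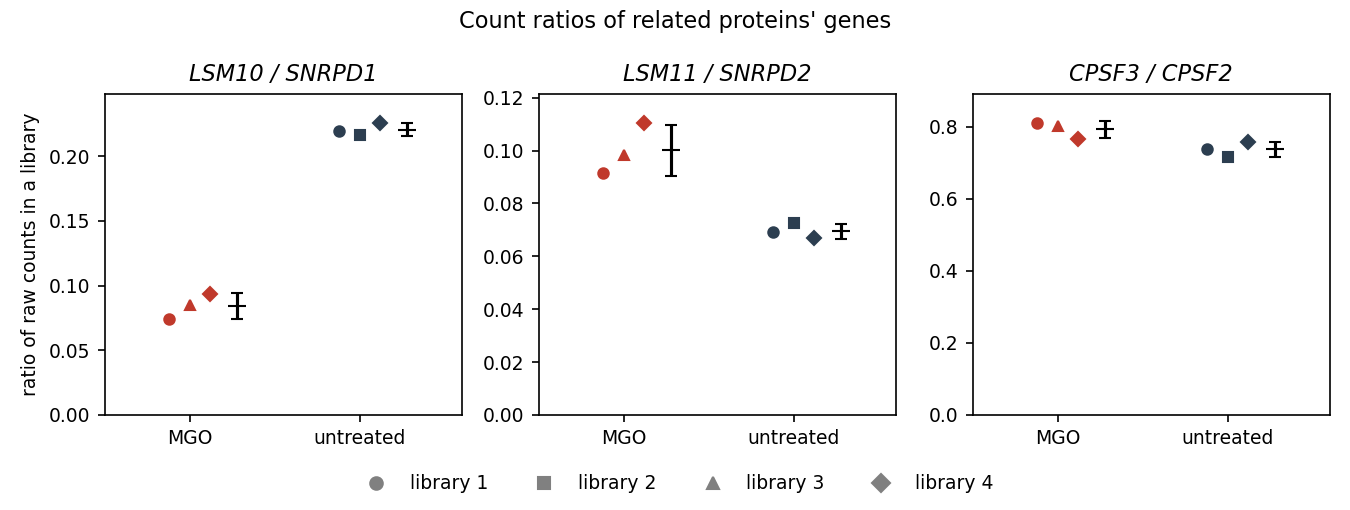
Ratio of raw counts of 2 genes within each library (y axes, each starting at 0) in MGO (red) and untreated (dark) libraries, with mean ± SD beside the points. LSM10 against SNRPD1 averages 0.0842 in MGO and 0.220 in untreated libraries, LSM11 against SNRPD2 is higher in MGO, and CPSF3 against CPSF2 differs least.

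The 7 genes of the spliceosomal Sm ring had log2 fold changes between -0.23 and 0.57, with 3 called higher, 4 lower and a median of -0.18. Among all tested genes 41.8% were called higher and 41.2% lower. SNRPB, a core protein shared by both rings, had the largest change of the 7 (464 ± 33.4 CPM in MGO and 313 ± 4.49 CPM in untreated libraries). SNRPD1 averaged 138 ± 4.71 CPM in MGO and 157 ± 3.12 CPM in untreated libraries (log2 fold change -0.19, adjusted p = 4.90e-05), and SNRPD2 averaged 273 ± 27.0 CPM in MGO and 320 ± 13.5 CPM in untreated libraries (log2 fold change -0.23, adjusted p = 0.00406). With library size as the only scaling, or with no filter on low counts, 1 of the 7 was called higher in place of 3, and none passed the test against a fold of 1.5.

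Promoters were matched by symbol in the RefSeq table (GRCh38.p14) for 8 of the 10 factors, over a window of 250 bases before to 50 after the gene start. Their G and C content had a median of 64.8%, against 58.7% over 35116 promoters. The CCAAT box (CCAAT, either strand) was found in 4 of the 8 (CASP8AP2, CPSF2, LSM10 and NPAT), against 34.6% of all promoters. E2F-type letters (TTTCCCGC, TTTGGCGC or TTTCGCGC, either strand), the kind of site used by many S phase genes, were found in 2 (CASP8AP2 and CPSF3), against 2.74%. The ETS letters CCGGAAG were in CPSF3 alone, against 10.3%. The cAMP response element TGACGTCA (1.85% of all promoters) and the ATF4-type letters TGATGNAAT (0.991%) were in none of the 8, and no match overlapped another. A match is a description of these letters and not a binding site.

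The 250 bases before the start are shown for LSM10 and CASP8AP2, the factors with the largest fall and the largest rise among those in the table, with capitals for CCAAT and E2F matches. The LSM10 window (chr1:36397909-36398158, minus strand) holds 1 CCAAT match that begins at -101 from the start, and the CASP8AP2 window (chr6:89829630-89829879, plus strand) holds 2, at -15 and -65, and the E2F match at -149.
LSM10: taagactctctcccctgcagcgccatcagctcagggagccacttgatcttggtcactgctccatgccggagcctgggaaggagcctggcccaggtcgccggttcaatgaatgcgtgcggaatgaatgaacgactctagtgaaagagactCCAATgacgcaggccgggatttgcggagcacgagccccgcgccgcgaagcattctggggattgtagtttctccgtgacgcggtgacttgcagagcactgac
CASP8AP2: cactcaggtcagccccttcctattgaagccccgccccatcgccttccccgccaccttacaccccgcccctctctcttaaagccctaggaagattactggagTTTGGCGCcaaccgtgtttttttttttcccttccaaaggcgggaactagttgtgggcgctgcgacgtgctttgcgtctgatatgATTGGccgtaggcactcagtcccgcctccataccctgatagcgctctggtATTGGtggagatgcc

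Several factors share their promoter region with a gene that runs the other way. For 5 of the 10 a tested protein-coding gene starts within 1000 bases on the opposite strand, and 4 of these 5 pairs were called in the same direction. Over all 751 such head-to-head pairs with both genes called, 55.3% had the same direction. ATM, the DNA damage kinase whose start lies 158 bases from that of NPAT, averaged 36.2 ± 1.81 CPM in MGO and 25.3 ± 0.953 CPM in untreated libraries (log2 fold change 0.51, adjusted p = 4.08e-10), close to the 0.60 of NPAT. NDUFB1, a respiratory chain subunit 20 bases from CPSF2, had a log2 fold change of -0.27 (adjusted p = 4.52e-05), and ITGB1BP1, an integrin-binding protein 21 bases from CPSF3, one of -0.53 (adjusted p = 1.40e-11). FOXA3, a forkhead factor 699 bases from SYMPK, was low throughout, at 3.83 ± 0.491 CPM in MGO and 0.982 ± 0.267 CPM in untreated libraries (log2 fold change 1.96, adjusted p = 2.47e-11). ZNF473 formed the exception: VRK3, a kinase 232 bases away, was lower, at 42.3 ± 0.988 CPM in MGO and 55.0 ± 1.15 CPM in untreated libraries (log2 fold change -0.38, adjusted p = 5.64e-09). Exons of NPAT and ATM overlap by 143 bases and those of ZNF473 and VRK3 by 223 bases, on opposite strands. Strand use in counting is not stated in the labels, and without strand the reads in those stretches cannot be told apart.

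**Figure D4:**
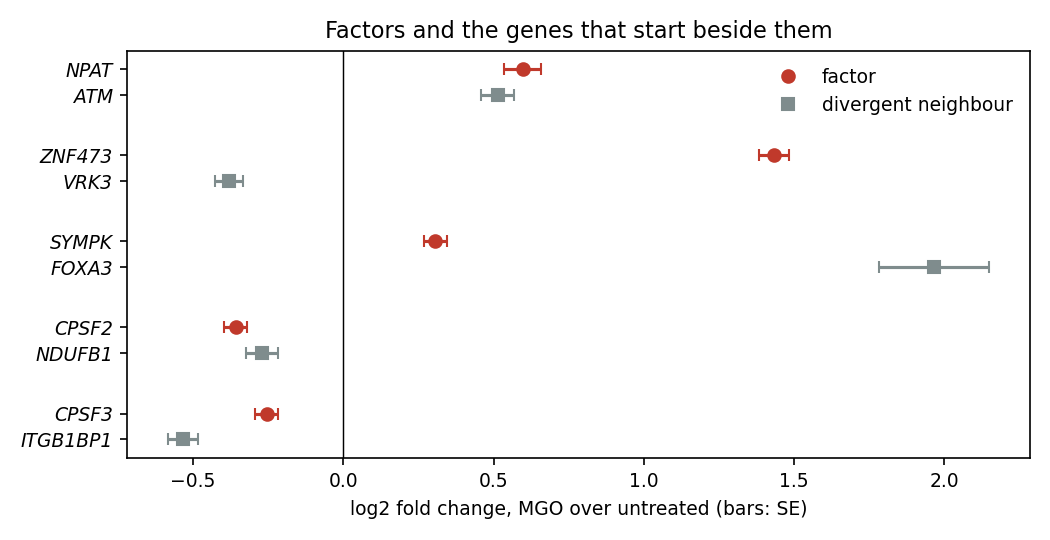
Log2 fold change (x axis, MGO over untreated, bars SE) of 5 factors (red circles) and of the protein-coding gene that starts within 1000 bases on the opposite strand (grey squares). Both genes lie on the same side of 0 in 4 pairs, and ZNF473 (1.43) and VRK3 (-0.38) lie on opposite sides.

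The other genes of the pathway are described by counts, to be read beside the 41.8% called higher and 41.2% called lower among all genes. Of 18 polyadenylation factors, 10 were higher, 5 lower and 3 not called (median log2 fold change 0.25). PCF11, which ends transcription after cleavage, averaged 87.3 ± 6.18 CPM in MGO and 36.0 ± 1.20 CPM in untreated libraries. FIP1L1, which helps to recruit poly(A) polymerase, averaged 40.4 ± 3.27 CPM in MGO and 15.9 ± 0.451 CPM in untreated libraries, and CSTF2T, the paralog of CSTF2, had a log2 fold change of 0.57. Of 4 genes around the Integrator nuclease, which forms the ends of small nuclear RNAs including U7, 2 were higher and 1 lower. Its catalytic subunit INTS11, the paralog of CPSF3, had a log2 fold change of 0.22 (adjusted p = 4.13e-06), and INTS9, the paralog of CPSF2, one of -0.44 (adjusted p = 8.21e-07). The count of polyadenylation factors called lower was 8 with no filter on low counts, and 3 with DESeq2, with the fixed replicate block or with a filter of at least 1 CPM in every library. Of the Integrator genes, 0 were called higher and 2 lower with no filter.

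Genes that act before cleavage were called in both directions. Of 10 genes of histone transcription, 6 were higher and 2 lower (median log2 fold change 0.28). HINFP, which activates histone H4 genes together with NPAT, averaged 36.7 ± 1.38 CPM in MGO and 14.0 ± 0.566 CPM in untreated libraries (log2 fold change 1.39, adjusted p = 3.30e-20). YY1, a zinc finger factor, had a log2 fold change of 1.01, whereas TFDP1, the partner of E2F factors, averaged 107 ± 3.16 CPM in MGO and 248 ± 4.40 CPM in untreated libraries (log2 fold change -1.21). Of 11 genes for cap-binding and elongation factors that take part in histone mRNA ends, 7 were higher and 2 lower (median 0.50). SRRT, or ARS2, which joins the cap-binding complex to RNA processing, averaged 397 ± 5.95 CPM in MGO and 192 ± 5.68 CPM in untreated libraries, CCNT1 of P-TEFb had a log2 fold change of 1.23 and the elongation factor SUPT5H one of 0.73. With no filter on low counts, 4 genes were called lower in each of these lists.

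Genes that act on SLBP or on the finished mRNA moved in both directions. Of 11 genes tied to SLBP turnover and phosphorylation, 7 were higher and 4 lower (median log2 fold change 0.22), and 4 were called higher with no filter on low counts. FEM1C, which selects proteins for ubiquitin ligases, averaged 82.4 ± 7.25 CPM in MGO and 25.5 ± 1.21 CPM in untreated libraries. The casein kinase 2 subunits moved in different directions: CSNK2A2 and CSNK2B had log2 fold changes of 0.70 and 0.91, whereas the catalytic subunit CSNK2A1 averaged 306 ± 11.6 CPM in MGO and 348 ± 4.30 CPM in untreated libraries (log2 fold change -0.19, adjusted p = 2.60e-05). Of 9 export and translation genes, 5 were higher and 4 lower. NXF1, the main mRNA export receptor, averaged 248 ± 5.18 CPM in MGO and 57.0 ± 2.07 CPM in untreated libraries (log2 fold change 2.12), and its adaptors SRSF7 and ALYREF had values of 1.36 and 0.76. Of 22 histone mRNA decay genes, 14 were higher and 7 lower (median 0.38). SMG1, a kinase of UPF1, averaged 209 ± 4.36 CPM in MGO and 59.5 ± 3.37 CPM in untreated libraries. ZCCHC6, a terminal uridyl transferase also called TUT7, had a log2 fold change of 1.71 and the decapping protein DCP1A one of 1.43.

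**Figure D5:**
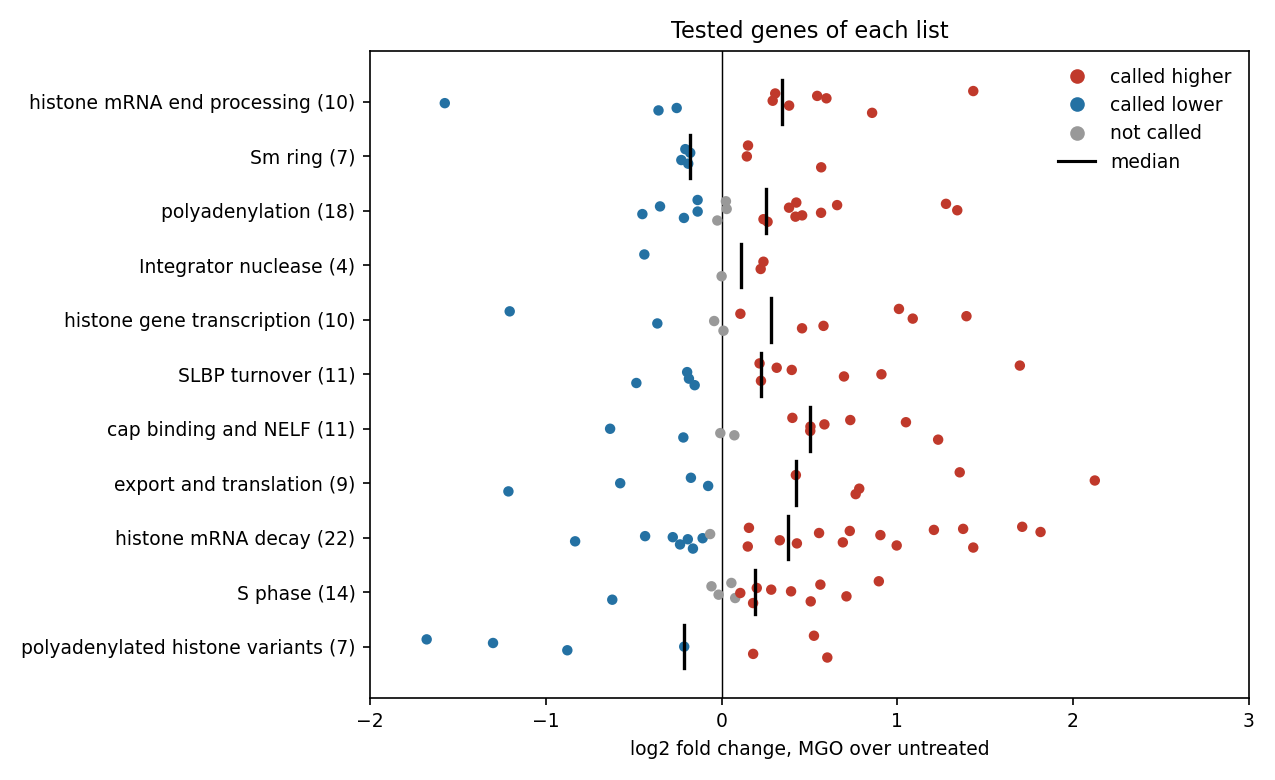
Log2 fold change (x axis, MGO over untreated) of every tested gene in each list (number in brackets), coloured by call, with the list's median as a black bar. The factors have a median of 0.34 and the Sm ring one of -0.18.

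The histone mRNAs that these factors process were counted in poly(A) RNA, where most of them are not expected to be recovered. Summed over 75 rows they came to 372, 362 and 336 CPM in MGO libraries 1, 3 and 4, against 189, 190 and 193 CPM in untreated libraries 1, 2 and 4. Each MGO sum was above each untreated sum. The filter on low counts was passed by 45 of the 75 rows, some of them only through the MGO libraries: HIST1H1D had 20, 13 and 11 counts in MGO libraries 1, 3 and 4, against 2, 2 and 1 in untreated libraries 1, 2 and 4. A count of calls over rows that passed in this way would follow from the filter, so none is given for it. With a filter of at least 1 CPM in every library, 15 rows were called higher and 0 lower, beside 5474 and 5589 of 12790 genes. The number of histone rows that passed this filter was not recorded, so the 15 are not a share of the 75 or the 45. Rows well above the filter also rose. HIST1H2AC averaged 35.6 ± 1.12 CPM in MGO and 4.45 ± 0.652 CPM in untreated libraries. HIST1H1C averaged 46.8 ± 4.25 CPM in MGO and 34.8 ± 1.19 CPM in untreated libraries. The pair of rows with the highest levels was not called. HIST1H2BK averaged 48.7 ± 0.681 CPM in MGO and 49.6 ± 0.565 CPM in untreated libraries (adjusted p = 0.603), and HIST3H2A averaged 44.7 ± 3.86 CPM in MGO and 41.6 ± 1.06 CPM in untreated libraries (adjusted p = 0.0729). Coding sequences of these genes are near copies of each other, so single rows are uncertain.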

How the data were processed

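The 6 libraries were deposited by the authors as raw counts per gene, 1 table each. Per the submitters' processing notes, Trim Galore, STAR 2.4, Picard, HTSeq 0.9.1 and the build hg38 were used; neither their settings nor the annotation or strand use is known here. Genes passing filterByExpr (17415 of 56832) were tested with edgeR 4.0.16 (R 4.3.3): TMM scaling, a robust quasi-likelihood fit of MGO against untreated and Benjamini-Hochberg adjustment over all genes tested, with a threshold of 0.05. All adjusted p-values are from this test unless an alternative is named. Alternatives used limma 3.58.1 and DESeq2 1.42.0. The test was checked on simulated data in which few genes changed, so that check does not cover changes as broad as those seen here. Gene models and transcripts came from GENCODE release 29, and promoters from RefSeq. Rows named by dates (29 in all) were left in. No pair of libraries agreed within sampling noise.

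The members and gene lists were chosen with earlier results of these data known. Genes were named by rule: all 10 factors, GLO1, RNU7-1, SNRPD1, SNRPD2, INTS9, INTS11, up to 3 genes of the smallest p in each other list, and the 2 histone rows of highest mean CPM. One gene named by this rule is not reported here. Head-to-head partners, CSTF2, CSNK2A1, H3F3B, HIST1H1D, HIST1H2AC, HIST1H1C, histone pseudogenes, marker genes and the genes shown or named for stem-loops were named outside it, after their values were seen.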

Additional observations from a re-analysis of the deposited data

How the results depend on the processing

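Under 19 alternatives, 182 of 190 values of the 10 factors kept their direction and call, 8 lost the call and 0 reversed. Against a fold of 1.5, 4363 genes were called higher and 3942 lower, with 2 factors higher and 1 lower; this test asks for a larger change by construction. The other lost call was that of LSM11 with no filter on low counts, which left 6 factors higher and 3 lower; the cause was not tested. Library size as the only scaling shifted log2 fold changes by a median of -0.11, and the factors stayed at 7 higher and 3 lower. Leaving out 1 library at a time gave 6947 to 7441 genes higher and 6919 to 7444 lower, always with 7 and 3 factors. A fixed replicate block gave 6778 higher and 6673 lower, with 7 and 3 factors. In that fit the treatment effect rested on the libraries numbered 1 and 4, because numbers 2 and 3 each occur in 1 group alone. Only numbers 1 and 4 occur in both groups, and libraries of the same number did not deviate together (correlations 0.0204 and -0.00780), so the numbers were not taken as pairs. Of 494 list counts, 457 were within 1.5 times their value under the alternatives, with 0 against 0 taken as agreement. These include the counts for the markers of other cells, of which 0 were tested in the main fit, so 457 overstates the agreement. Depth differed with treatment in every library, and with the untreated libraries thinned to the mean MGO total the factors again stood at 7 higher and 3 lower.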

Other observations

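Of 14 S phase genes, 9 were called higher, 1 lower and 4 not called (edgeR quasi-likelihood test). Among all tested genes 83.1% were called, 41.8% higher and 41.2% lower. UNG, which removes uracil from DNA, averaged 292 ± 9.58 CPM in MGO and 157 ± 2.63 CPM in untreated libraries, and MCM2, a subunit of the replicative helicase, averaged 510 ± 19.8 CPM in MGO and 312 ± 5.52 CPM in untreated libraries. The counts moved with the processing: 7 were called higher and 3 lower with library size as the only scaling, 6 higher and 5 lower with no filter on low counts, and 8 higher and 2 lower without MGO library 4. Against a fold of 1.5, 2 were called higher and 0 lower.

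Of 7 genes for histone variants expressed outside S phase, 3 were called higher and 4 lower, beside 41.8% and 41.2% of all tested genes. With library size as the only scaling, or with no filter on low counts, 2 were called higher and 4 lower. Both genes for histone H3.3 are among the 7 and went opposite ways. H3F3A averaged 95.0 ± 4.57 CPM in MGO and 304 ± 4.82 CPM in untreated libraries, whereas H3F3B, with far more counts, averaged 1274 ± 8.57 CPM in MGO and 885 ± 5.96 CPM in untreated libraries (log2 fold change 0.53, adjusted p = 6.50e-16). H2AFZ, which encodes H2A.Z, averaged 141 ± 3.31 CPM in MGO and 348 ± 4.57 CPM in untreated libraries, and H2AFV, its close relative, averaged 148 ± 6.84 CPM in MGO and 271 ± 7.34 CPM in untreated libraries.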
